A study of Saccharomyces cerevisiae with 12 samples.

Results

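The comparison described here is between the second and the first array taken after the large expression shift in a stationary phase course of budding yeast. The arrays were chosen by how many genes stood 2-fold or more apart between successive arrays: 2561 of 5933 genes in the USV1 deletion at 5 hours against 2 hours, and 2014 of 5880 genes in wild type at 7 hours against 5 hours. The first array after the shift was therefore that of 5 hours in the deletion and of 7 hours in wild type. The second was that of 7 hours in the deletion and of 9 hours in wild type, so 4 of the 12 arrays of the study entered, 1 per strain and stage. The values that selected the arrays are given as a description only, and a low or high value on a first array enters both the shift and the change that follows it.

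The study set the RNA of each culture sample against a reference RNA on spotted 2-colour arrays, with 6 arrays of a Saccharomyces cerevisiae strain lacking YPL230W (USV1, a zinc finger protein) and 6 of wild type, strain DBY8778. Arrays of the deletion cover 0, 2, 5, 7 and 9 hours and 1 day, those of wild type 0, 3, 5, 7 and 9 hours and 1 day. The labels leave unsaid what the hours were counted from and whether each strain had 1 culture or several, and each time point has a single array. The p-values therefore say nothing of how cultures vary, and the error of 1 array cannot be told apart from a change at its time. The labels place the whole course in stationary phase and do not describe the medium, the reference RNA or the dyes.

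Values are log2 ratios, centred to a median of 0 on each array. Neither the log base nor the direction of the ratio is stated. The base was taken as 2. Values above 0 were taken to mean more RNA in the sample, a likely direction rather than a known one, since USV1 then reads lower in the deletion than in wild type. The 4 arrays shared 5872 of 6100 open reading frames, and the standard deviation over genes was 1.43 at 7 hours and 1.63 at 5 hours in the deletion, and 1.41 at 9 hours and 1.46 at 7 hours in wild type. Genes that mark a and alpha cells were read as well, and no mating type is concluded from them. The a-factor genes MFA1 and MFA2 lay between 0.21 and 0.27 at the second arrays and between 0.25 and 1.2 at the first. Other a-cell genes did not all lie above 0. At the deletion 7-hour and wild-type 9-hour arrays, STE2 read -1.08 and -1.42, STE6 -0.30 and -0.79, and BAR1 -0.98 and -1.15. AGA2 read 0.27 and -0.33 there, and ASG7 0.80 and 0.09. The alpha-factor genes MF(ALPHA)1 and MF(ALPHA)2 lay between -0.67 and 0.30 at the second arrays and between -0.99 and -0.03 at the first. STE3, the receptor for a-factor that alpha cells carry, read -0.60 at 7 hours and -0.55 at 5 hours in the deletion, and 1.07 at 9 hours and -0.43 at 7 hours in wild type, so at wild type 9 hours it lay above both a-factor genes. These are ratios to a reference RNA of unknown make-up, so they do not give the level of either set.

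When glucose runs out, budding yeast passes through the diauxic shift. It stops fermenting and begins to respire the ethanol and acetate it has made. Genes of the glyoxylate cycle and gluconeogenesis, which build sugars from such small carbon compounds, are repressed by glucose and come on once it is gone. Respiratory genes rise, stores of trehalose and glycogen accumulate, and the genes that build ribosomes are turned down. The difference between the second and the first array, called the step here, shows which of these genes were still moving.

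USV1 itself read 1.14 at 7 hours and -1.4 at 5 hours in the deletion, and 3.94 at 9 hours and 4.40 at 7 hours in wild type. Both readings of the deletion lay below both of wild type. The step of USV1 was 2.54 in the deletion and -0.46 in wild type, and it was not called in any fit (limma adjusted p = 0.374 over both strains). The deletion's reading above 0 at 7 hours has no repeat array, and what its probe binds in a strain without the gene was not tested.

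Over the genes measured on both arrays of a strain, the step left 700 at least 2-fold apart in the deletion and 403 in wild type. The shift before it was chosen for its size, so nothing is read from the smaller counts after it. Among the 5872 genes measured on all 4 arrays, 459 (7.82%) stood 2-fold or more higher at the second array in the deletion and 226 (3.85%) that far lower, against 266 (4.53%) higher and 134 (2.28%) lower in wild type. Both strains moved at least 2-fold up in 108 genes (1.84%) and down in 24 (0.409%). Opposite moves of that size were seen in 5 genes up in the deletion and down in wild type (0.0851%) and in 1 gene the other way (0.017%). Across genes the deletion and wild-type steps correlated with r = 0.406 (n = 5872 genes, which are not independent replicates and share the reference RNA and the array design), and 59.5% of genes stepped with the same sign in both strains. Of the 459 genes that were 2-fold higher in the deletion, 108 (23.5%) were also 2-fold higher in wild type, where 4.53% of all genes were. Of the 266 genes that were 2-fold higher in wild type, the same 108 made up 40.6%, where 7.82% of all genes were higher in the deletion. The 24 shared falls were 10.6% of the deletion's falls and 17.9% of the wild-type falls.

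A limma fit of the 4 arrays with strain as a block asked which genes moved alike in both strains. It called 90 genes up (1.53% of 5872) and 12 down (0.204%) at a Benjamini-Hochberg adjusted p under 0.05. Of these, 82 of the 90 and 12 of the 12 were at least 2-fold apart in each strain. The residual of this fit is a single degree of freedom, the disagreement between the strains' steps, so the spread is largely borrowed across genes. With the deposited centring limma called 37 of these genes, and in a fit of all 12 arrays 55. Quantile normalization gave 98 up and 41 down, and arrays compared at equal labelled times, 9 against 7 hours in both strains, gave 0 calls with limma, with 462 genes at an unadjusted p under 0.05. Left out in turn, and then without the strain block, the deletion 7-hour or the wild-type 9-hour array brought the calls to 0, the deletion 5-hour array to 19 and the wild-type 7-hour array to 127, where the same fit on all 4 arrays called 9.

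**Figure D1:**
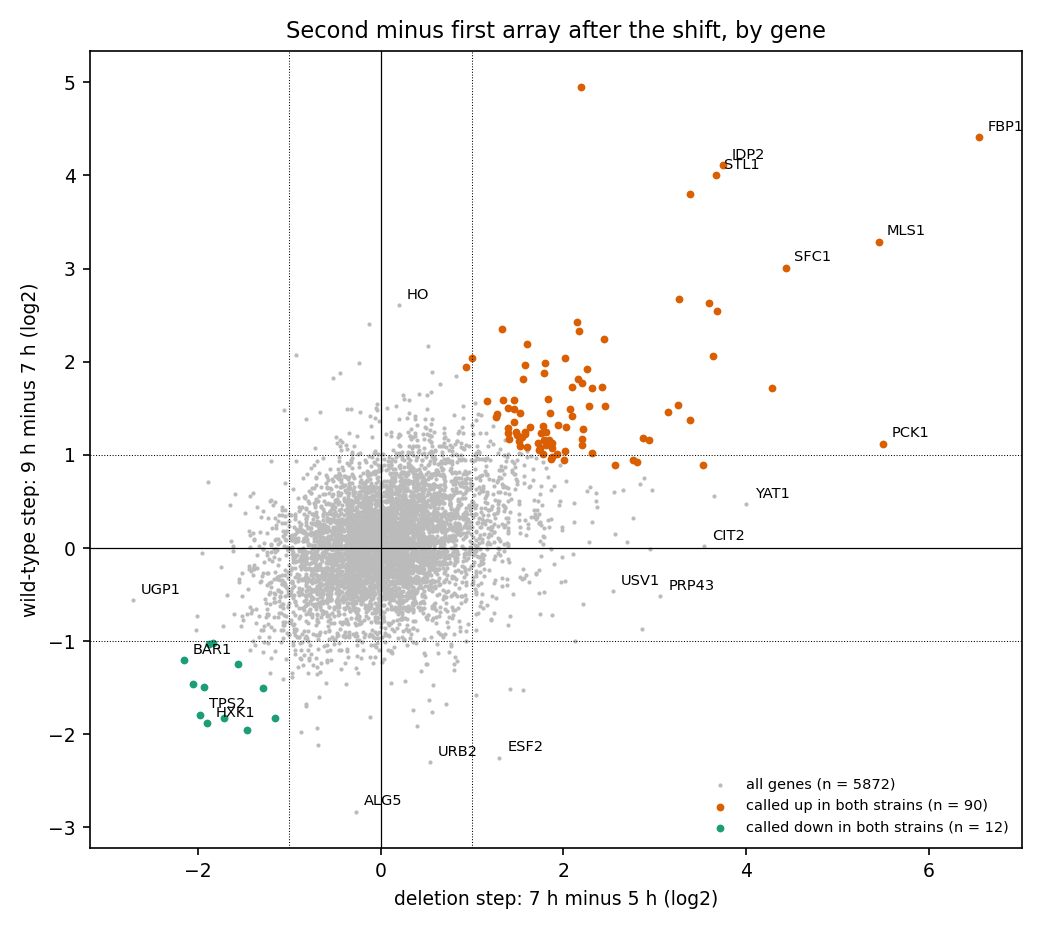
Each point is a gene. The horizontal axis is the deletion step (7 hours minus 5 hours, log2) and the vertical axis the wild-type step (9 hours minus 7 hours, log2), dotted lines mark a 2-fold change, and colours mark the 90 genes called up and the 12 called down over both strains by limma. FBP1 lies farthest right, PCK1 far right with a small wild-type step, and ESF2 and URB2 lie right of 0 and far down.

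The genes that responded late in both strains included enzymes and carriers for growth on small carbon compounds. FBP1, fructose-1,6-bisphosphatase of gluconeogenesis, read 6.04 at 7 hours and -0.51 at 5 hours in the deletion, and 7.34 at 9 hours and 2.93 at 7 hours in wild type. Its mean step was 5.48 (SE 0.43, limma adjusted p = 7.38e-05), and in the deletion the first array stood where the array before it had, at -0.48 at 2 hours. MLS1, malate synthase of the glyoxylate cycle, read 5.09 and -0.36 in the deletion at 7 and 5 hours, and 5.70 and 2.41 in wild type at 9 and 7 hours (limma adjusted p = 0.000428). SFC1, which carries succinate and fumarate across the mitochondrial membrane, read 4.77 and 0.34 in the deletion, and 5.0 and 1.99 in wild type, at the second and first arrays (limma adjusted p = 0.000382). For these 3 genes the first array was already above the array before it in wild type, and close to it in the deletion.

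A further pair of genes had risen little by the first array in either strain. IDP2, the cytosolic NADP-dependent isocitrate dehydrogenase, read 4.39 at 7 hours and 0.64 at 5 hours in the deletion, and 5.05 at 9 hours and 0.94 at 7 hours in wild type. STL1, which imports glycerol with protons, read 3.45 and -0.22 in the deletion, and 4.42 and 0.42 in wild type, at the same arrays. Their mean steps were 3.93 for IDP2 and 3.83 for STL1 (SE 0.29 each, limma adjusted p = 7.38e-05 each). The steps of each were close in both strains, 3.75 and 4.11 for IDP2 and 3.67 and 4.0 for STL1 in the deletion and wild type, and in both strains each gene was still above its first-array value at 1 day.

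Of the 15 genes of the glyoxylate cycle and gluconeogenesis list, 8 were called up over both strains and 0 down, where 1.53% of all genes were called up. Besides FBP1, MLS1, SFC1 and IDP2 these were ACS1, acetyl-CoA synthetase, with steps of 1.85 in the deletion and 1.45 in wild type, ACH1 with 1.39 and 1.5, the acetate transporter ADY2 with 3.53 and 0.89, and PCK1. At least 2-fold rises were seen in 12 of the 15 in the deletion and 7 in wild type, beside 7.82% and 4.53% of all genes. The list's median step was 2.84 in the deletion and 0.89 in wild type, where all genes had 0.03 and 0.06. MDH2, cytosolic malate dehydrogenase, went the other way, with -0.92 in the deletion and -0.87 in wild type, and was not called (limma adjusted p = 0.15).

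Respiratory genes were also higher at the second array in both strains. CYC1, which encodes cytochrome c, read 2.49 at 7 hours and -0.77 at 5 hours in the deletion, and 2.89 at 9 hours and 0.22 at 7 hours in wild type (limma adjusted p = 0.000488). COX5A, a subunit of cytochrome c oxidase, read 3.79 and 1.63 in the deletion, and 4.05 and 2.23 in wild type (limma adjusted p = 0.00754). Among the 39 measured members of the respiratory list, which holds the electron transport chain and ATP synthase, 7 were called up over both strains and 0 down, namely CYC1, COX5A, COX8, COX12, ATP5, ATP7 and TIM11, where 1.53% of all genes were called up. At least 2-fold rises were seen in 24 in the deletion and 14 in wild type, beside 7.82% and 4.53% of all genes, 0 members fell 2-fold in either, and the median step was 1.15 in the deletion and 0.91 in wild type. The tricarboxylic acid cycle had a median step of 0.91 in the deletion and 0.48 in wild type over 16 genes. One of its genes was called, PYC1, pyruvate carboxylase, with steps of 3.15 in the deletion and 1.46 in wild type (limma adjusted p = 0.0121). MIR1, the mitochondrial phosphate carrier, read 2.09 and -0.11 in the deletion at 7 and 5 hours, and 1.98 and 0.21 in wild type at 9 and 7 hours (limma adjusted p = 0.00772), having been at -0.06 in the deletion at 2 hours and at 0.07 in wild type at 5 hours.

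**Figure D2:**
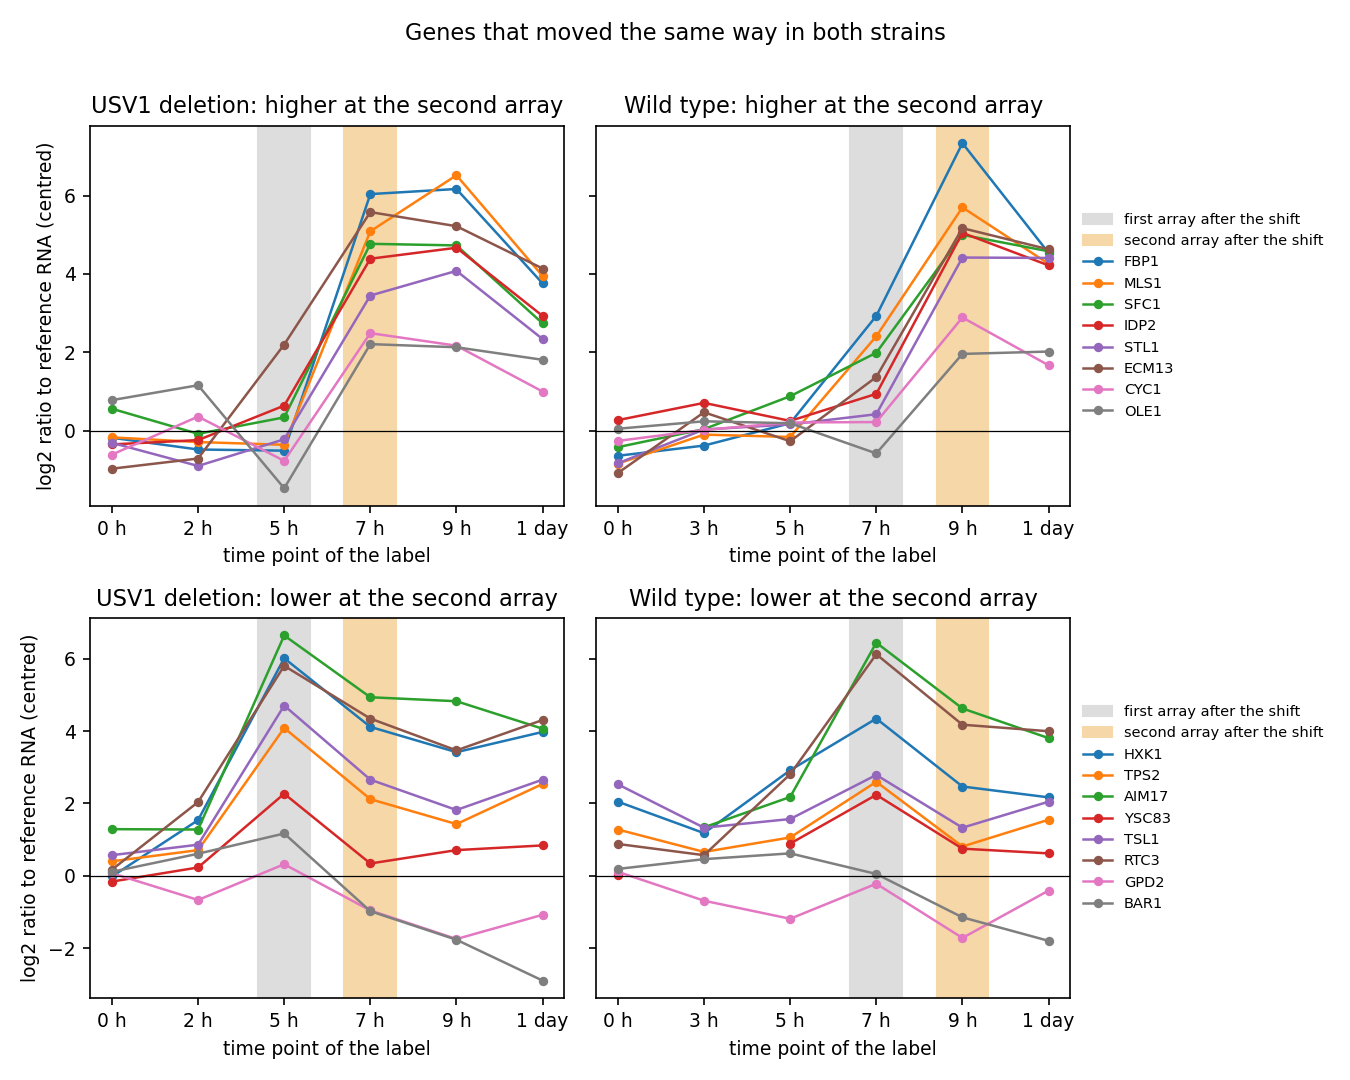
Centred log2 ratios to the reference RNA over the 6 arrays of the deletion (left) and of wild type (right), for 8 genes higher (top) and 8 genes lower (bottom) at the second array in both strains; bands mark the first and second arrays after the shift, and each point is 1 array. IDP2, STL1 and CYC1 stand below 1 in the first band and above 2 in the second in both strains, and TPS2, TSL1 and HXK1 peak in the first band in both strains.

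Some genes called up over both strains belonged to lipid, arginine and nitrogen metabolism, and not all of them were late rises. With the shift OLE1 had moved by -2.63 in the deletion and -0.77 in wild type, and CPA1 by -1.47 and 0.77. ERG3 and TAT1 had fallen at least 2-fold in both strains, and PHO89 had already risen by 2.29 in wild type. OLE1, the fatty acid desaturase, read 2.21 at 7 hours and -1.47 at 5 hours in the deletion, and 1.96 at 9 hours and -0.58 at 7 hours in wild type, and its step was also called for each strain (limma adjusted p = 0.000681 over both strains). ACC1, acetyl-CoA carboxylase, ERG3 of sterol synthesis and INO1, inositol-3-phosphate synthase, were called as well, 4 of 39 genes of the sterol and fatty acid list (1.53% of all genes were called up), whose median steps were 0.06 in the deletion and 0.16 in wild type. CPA1, which acts in arginine synthesis, read 2.83 and -1.45 in the deletion at 7 and 5 hours, and 2.34 and 0.62 in wild type at 9 and 7 hours (limma adjusted p = 0.0103). YOR302W, the short upstream reading frame of the CPA1 messenger, stepped by 1.84 in the deletion and 1.16 in wild type, and these spots cannot tell it apart from the rest of that transcript. In the arginine, lysine and histidine list 4 of 25 genes were called up, ARG1 and ARG3 among them, against a median step of 0.47 in the deletion and 0.02 in wild type. The proline permease PUT4 stepped by 2.17 in the deletion and 2.33 in wild type (limma adjusted p = 0.00303), and with GDH1, GDH2, GDH3 and TAT1 it made 5 calls up among 33 nitrogen genes, again beside 1.53% of all genes. PHO89, a phosphate transporter, read 3.28 and -0.10 in the deletion, and 3.81 and 2.44 in wild type (limma adjusted p = 0.0156).

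HSF1, the heat shock transcription factor, read 1.39 at 7 hours and -0.87 at 5 hours in the deletion, and 1.13 at 9 hours and -0.79 at 7 hours in wild type (limma adjusted p = 0.00579). No member of the 2 heat shock protein lists was called, of 11 small heat shock and HSP30 family genes and 28 HSP70, HSP90 and HSP100 chaperones. Of all genes 1.53% were called up and 0.204% down, so 0 calls in lists of this size lies near the background. KAR2, the chaperone of the endoplasmic reticulum, had the largest mean step of the second list, with -1.33 in the deletion and -0.96 in wild type (limma adjusted p = 0.0797). The call with the largest wild-type step was NCE103, carbonic anhydrase, which read 1.88 at 7 hours and -0.31 at 5 hours in the deletion, and 2.07 at 9 hours and -2.88 at 7 hours in wild type (limma adjusted p = 0.00579). NCE103 had already ranged from -3.34 to 2.03 on the wild-type arrays before the shift, and its step was not called for either strain (limma adjusted p = 0.659 in the deletion and 0.51 in wild type).

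Recovery after a fall was the class with the most genes as centred, but not under every scaling. Genes were classed by their shift and their step at 2-fold each, and 5692 genes could be classed in both strains. In the deletion 260 genes and in wild type 123 fell with the shift and came back up at the second array, 37 of them in both strains. Under quantile normalization the deletion had 30 recoveries and 36 further rises, and both strains shared 2 and 4, and with arrays scaled to equal spread both strains shared 13 recoveries and 15 further rises. If the ratio ran the other way, the recoveries would read as rises that faded, and the fading rises as recoveries. Genes that had moved by less than 0.5 log2 units with the shift and then rose 2-fold numbered 72 in the deletion, 45 in wild type and 8 in both, among them ALT2, ARO10, MIR1, SNZ2, YCLX09W, YHR033W and YOR302W. Genes that rose 2-fold with the shift and again after it numbered 70, 48 and 18, among them ACS1, ACH1, COX4, COX12, ECM13, GDH3, GRE1, INO1, ODC1, REG2 and SIP18. Rises that faded numbered 147 in the deletion, 56 in wild type and 11 in both. Late falls were few, with 25, 34 and 2, and further falls fewer, with 9, 7 and 1, the last being STE2, the receptor for alpha factor.

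Shift and step share the first array, so the recovering and fading classes were read on the arrays of the other strain, which did not define them. The 259 recovering genes of the deletion that wild type measured had a median wild-type step of 0.41, and 48 of them (18.5%) were 2-fold higher there, beside 4.53% of all genes. The 122 recovering genes of wild type had a median deletion step of 0.65, and 39 (32%) were 2-fold higher there, beside 7.82%. For the fading genes the other strain's median step was -0.31 for the 140 chosen in the deletion and -0.74 for the 55 chosen in wild type, and 14 of each (10% and 25.5%) were 2-fold lower there, beside 2.28% and 3.85% of all genes.

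Among the recovering genes called by limma, RKI1, ribose-5-phosphate ketol-isomerase of the pentose phosphate pathway, read -0.68 at 7 hours and -4.27 at 5 hours in the deletion, and -0.77 at 9 hours and -3.40 at 7 hours in wild type (limma adjusted p = 0.000513). It was thus back within 1 unit of the reference at the second array in both strains. TAT1, an amino acid permease, read -0.39 and -2.84 in the deletion, and -0.50 and -2.74 in wild type (limma adjusted p = 0.00248). ILV5 of branched-chain amino acid synthesis read -2.06 and -4.15 in the deletion, and -2.11 and -3.84 in wild type, so it recovered in part only (limma adjusted p = 0.00843). ERG3 read -2.19 and -3.99 in the deletion, and -1.4 and -3.39 in wild type.

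More ribosome assembly genes were 2-fold higher at the second array in the deletion than in wild type, a difference of counts that was not tested. Of 71 genes for ribosome assembly and rRNA processing, 43 were at least 2-fold higher at the second array in the deletion and 0 lower, against 5 higher and 3 lower in wild type. Over all genes 7.82% were higher and 3.85% lower in the deletion, and 4.53% higher and 2.28% lower in wild type, so the wild-type counts of the list lie near the background. The deletion's step was the higher one for 64 of the 71. The median step was 1.12 in the deletion and 0.26 in wild type, and under quantile normalization it was 0.29 in the deletion and turned to -0.01 in wild type. The list's median level was -2.03 at 7 hours and -3.37 at 5 hours in the deletion, and -2.09 at 9 hours and -2.29 at 7 hours in wild type, so the strains stood closer at the second arrays than at the first. KRR1, DBP3, NOP56 and NOG2, 4 of the 71, were called up over both strains, where 1.53% of all genes were. NOP56, a core protein of the box C/D particles that guide rRNA methylation, read -2.96 and -4.52 in the deletion, and -3.14 and -4.96 in wild type (limma adjusted p = 0.0149).

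The cytosolic ribosomal protein genes showed another order. The 81 genes of the large subunit had a median step of 0.47 in the deletion and 0.71 in wild type, and the 54 of the small subunit 0.39 and 0.86, as centred, but the deletion's medians turned negative under quantile normalization (-0.24 and -0.30) and the small subunit's also when arrays were scaled to equal spread (-0.02). At least 2-fold rises were seen in 5 of the 81 and 7 of the 54 in the deletion, where 7.82% of all genes rose that far, and in 23 and 18 in wild type, where 4.53% did. The large subunit's share in the deletion was thus below that of all genes. A single member, RPL12A, was called up, where 1.53% of all genes were. It lay just inside the threshold (limma adjusted p = 0.0494), with steps of 0.94 in the deletion and 1.94 in wild type. Most of these genes exist as near-identical pairs whose spots can bind each other's transcripts, so single members are uncertain. Mitochondrial ribosomal genes had a median step of -0.27 in the deletion and 0.05 in wild type over 50 genes. Of these, 5 were 2-fold lower in the deletion and 0 in wild type, where 3.85% and 2.28% of all genes were. None was called (0 of 50), which lies near the background of 1.53% called up and 0.204% called down.

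**Figure D3:**
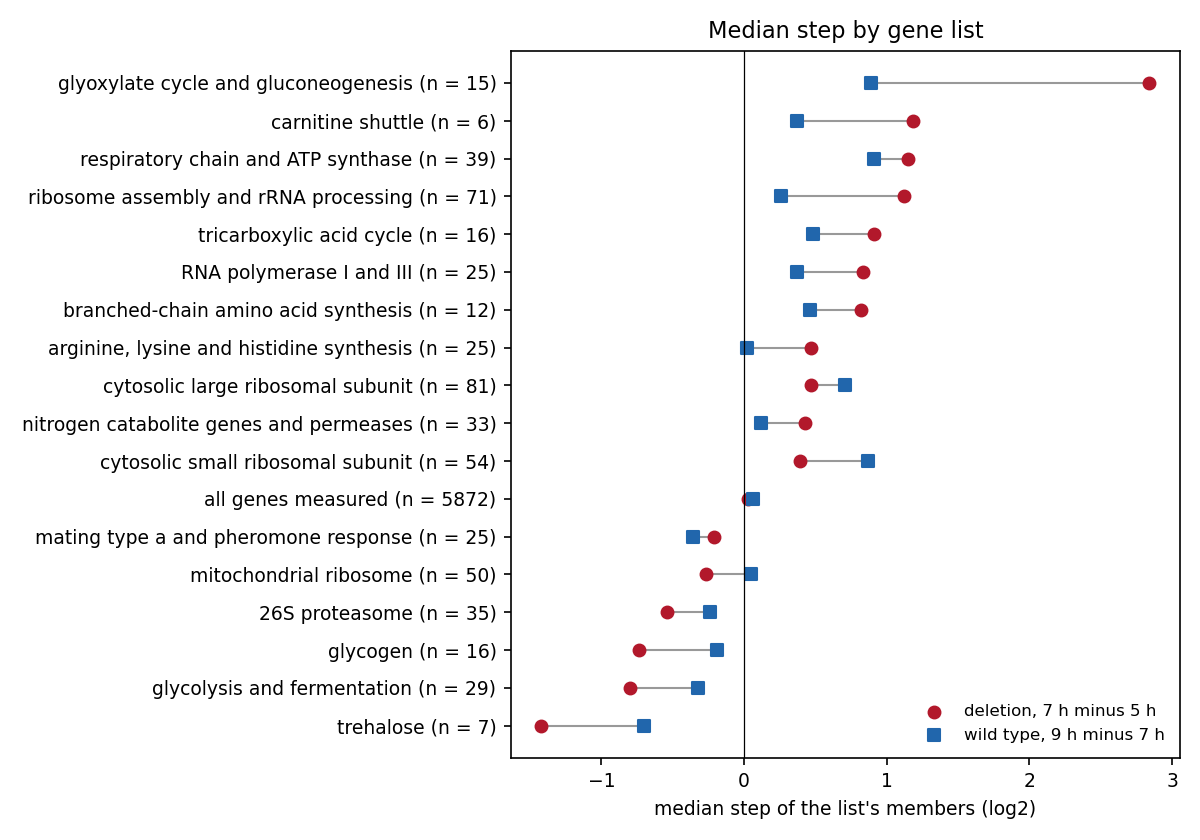
Median step (log2) of the members of 17 gene lists and of all genes measured, with circles for the deletion (7 hours minus 5 hours) and squares for wild type (9 hours minus 7 hours). Glyoxylate and gluconeogenesis genes lie farthest right at 2.84 in the deletion, trehalose genes farthest left at -1.42, and wild type exceeds the deletion for both cytosolic ribosomal lists.

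Scaling moved the size of several list medians. Under quantile normalization the median step was 0.47 in wild type for the glyoxylate and gluconeogenesis list and 0.52 in wild type for the respiratory list. The tricarboxylic acid cycle had 0.57 in the deletion, trehalose genes -0.86, glycogen genes -0.46 and the RNA polymerase list 0.23 in the deletion and 0.06 in wild type. With arrays scaled to equal spread, the deletion medians were -0.83 for trehalose, -0.30 for glycogen, -0.51 for glycolysis and fermentation and 0.63 for ribosome assembly. Between 7 and 9 hours in the deletion, a later interval, the medians were 0.70 for glyoxylate and gluconeogenesis, 0.08 for respiration and -0.41 for trehalose.

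The genes that faded in both strains and were called included HXK1, the trehalose genes TPS2 and TSL1 and the glycogen gene GAC1. HXK1, a hexokinase that is induced when glucose is low, read 4.12 at 7 hours and 6.02 at 5 hours in the deletion, and 2.47 at 9 hours and 4.35 at 7 hours in wild type. Its mean step was -1.89 (SE 0.29, limma adjusted p = 0.00843). TPS2, trehalose-6-phosphate phosphatase, read 2.12 and 4.09 in the deletion, and 0.81 and 2.60 in wild type (mean step -1.88, SE 0.29, limma adjusted p = 0.00843). TSL1, a regulatory subunit of the trehalose synthase complex, read 2.66 and 4.71 in the deletion, and 1.33 and 2.79 in wild type (limma adjusted p = 0.0149). All 3 remained above 0 at the second array in both strains. In wild type all 3 were then below their 5-hour values, which were 2.92 for HXK1, 1.06 for TPS2 and 1.57 for TSL1.

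All 7 trehalose genes were lower at the second array in the deletion and 6 of 7 in wild type, with medians of -1.42 and -0.70, beside 0.03 and 0.06 for all genes. At least 2-fold falls were seen in 4 and 2 of them, where 3.85% and 2.28% of all genes fell. TPS2 and TSL1 were the 2 calls, where 0.204% of all genes were called down. The catalytic subunit TPS1 read 2.11 and 3.53 in the deletion, and 1.72 and 2.42 in wild type, and was not called (limma adjusted p = 0.116). Of 16 glycogen genes 7 were 2-fold lower in the deletion and 1 in wild type, with medians of -0.73 and -0.19 and 6 of the 16 above 0 in wild type. GAC1, which directs a protein phosphatase to glycogen synthase, was called over both strains, at 0.56 and 2.39 in the deletion and 0.50 and 1.52 in wild type (limma adjusted p = 0.0455). UGP1, which makes the UDP-glucose used for both stores, was called in the deletion alone, at 1.02 and 3.73, while it read 0.09 and 0.65 in wild type (limma adjusted p = 0.029 in the deletion and 0.893 in wild type). The difference of the 2 UGP1 steps was not called (limma adjusted p = 0.744). Of 29 genes of glycolysis and fermentation, 9 were 2-fold lower in the deletion and 1 in wild type, with medians of -0.80 and -0.32. The wild-type counts of both lists are 1 gene each, where 2.28% of all genes were lower, and in the deletion 3.85% were.

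Other genes called down over both strains were AIM17, YSC83, RTC3, GRE3, GPD2, VIR1, RPC53 and BAR1. AIM17 read 4.94 and 6.65 in the deletion, and 4.63 and 6.45 in wild type (limma adjusted p = 0.0113), so it stayed far above the reference. GRE3, an aldose reductase, read 2.11 and 3.99 in the deletion, and 1.45 and 2.48 in wild type (limma adjusted p = 0.0427). GPD2, a glycerol-3-phosphate dehydrogenase, read -0.96 and 0.32 in the deletion, and -1.72 and -0.22 in wild type (limma adjusted p = 0.0401). RPC53, a subunit of RNA polymerase III, read -2.50 and -1.35 in the deletion, and -2.91 and -1.08 in wild type, and its steps of -1.15 and -1.83 ran against a list median of 0.83 in the deletion and 0.37 in wild type for 25 subunits of RNA polymerases I and III. ATE1, which attaches arginine to protein ends, lay just outside the threshold, with steps of -1.21 in the deletion and -1.34 in wild type (limma adjusted p = 0.0508). BAR1, the protease with which a cells degrade alpha factor, read -0.98 and 1.17 in the deletion, and -1.15 and 0.05 in wild type (limma adjusted p = 0.0275). The other a-cell marker genes, STE2, STE6, AGA2, ASG7, MFA1 and MFA2, were also lower at the second arrays in both strains, without a call. STE2 read -1.08 and -0.01 in the deletion and -1.42 and -0.01 in wild type (limma adjusted p = 0.059). The a-factor exporter STE6 had steps of -1.06 in the deletion and -0.72 in wild type. Steps were -1.01 and -0.62 for AGA2, -0.74 and -1.26 for ASG7, -0.02 and -0.36 for MFA1, and -0.09 and -0.93 for MFA2.

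Most called genes were still on the stepped side of their first-array value at 1 day, though the set medians had moved part of the way back. The 90 genes called up had a deletion median of -0.41 at 5 hours that reached 1.81 at 7 hours and was 1.33 at 9 hours and 1.08 at 1 day, and a wild-type median of 0.16 at 7 hours that reached 1.53 at 9 hours and was 1.42 at 1 day. At 1 day 87 of 90 in the deletion and 79 of 88 measured in wild type were above their first-array value. The 12 genes called down had a deletion median of 3.34 at 5 hours that came to 1.62 at 7 hours and was 1.19 at 9 hours and 1.77 at 1 day, and a wild-type median of 2.36 at 7 hours that came to 0.78 at 9 hours and was 1.5 at 1 day, with 11 of 12 still below the first array at 1 day in each strain. All these comparisons share the first array with the step, so the counts cannot show that a step held.

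A fit with a step for each strain, which took 1 spread per gene from the arrays before the shift of both strains together and assumed that the single later arrays vary like them, called 65 genes up and 3 down in the deletion (1.12% and 0.0515% of 5823) and 8 up and 1 down in wild type (0.137% and 0.0172%). The 9 wild-type calls were FBP1, IDP2, STL1, ECM13, MLS1, OLE1, EFM4 and HO upward and ALG5 downward, and 7 of the 9 were among the calls over both strains. The SD of the step over genes was 0.69 in the deletion and 0.55 in wild type, and a call in one strain without the other does not show a difference. Under quantile normalization limma called 0 genes in either strain, with 26 in the deletion and 11 in wild type at an unadjusted p under 0.05. With arrays scaled to equal spread it called 3 genes in the deletion and 0 in wild type, with 73 and 38 at an unadjusted p under 0.05.

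The counts also moved with single arrays before the shift. Without the 0-hour or the 2-hour array of the deletion, limma called 27 genes in the deletion and 2 in wild type in each case. Without the 0-hour or the 5-hour array of wild type, it called 188 and 189 genes in the deletion and 29 and 37 in wild type. The difference between the deletion step and the wild-type step was called for 1 gene (0.0172% of 5823), with 302 at an unadjusted p under 0.05. It was called for 0 genes without either of those deletion arrays or the wild-type 3-hour array (213, 218 and 260 at an unadjusted p under 0.05), and for 6 and 10 without the wild-type 0-hour and 5-hour arrays. Quantile normalization and scaling to equal spread gave 0 as well, with 3 and 12 genes at an unadjusted p under 0.05.

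The gene whose steps differed was PCK1, phosphoenolpyruvate carboxykinase, which commits carbon to gluconeogenesis. It read 5.39 at 7 hours and -0.11 at 5 hours in the deletion, and 6.0 at 9 hours and 4.88 at 7 hours in wild type. The step was 5.50 in the deletion and 1.12 in wild type, a difference of 4.38 (SE 0.53, limma adjusted p = 0.0196). The strains lay much closer at the second arrays than at the first, with the deletion lower at both. At the array before the shift PCK1 read -0.33 in the deletion and -0.01 in wild type.

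Further genes of carbon metabolism had the same shape without a called difference. YAT1, a carnitine acetyltransferase, read 4.03 and 0.03 in the deletion, and 3.40 and 2.93 in wild type. CIT2, the peroxisomal citrate synthase, read 4.94 and 1.4 in the deletion, and 4.92 and 4.90 in wild type. PDH1, which is linked to propionate breakdown, read 3.69 and 0.04 in the deletion, and 3.33 and 2.77 in wild type. Each was called in the deletion (limma adjusted p = 0.0017 for YAT1 and 0.00415 for CIT2 and PDH1), and in wild type each was already near its second value at the first array. The difference of the steps gave a limma adjusted p of 0.234 for YAT1 and CIT2 and 0.48 for PDH1. PUT1, proline oxidase, read 4.07 and 1.21 in the deletion, and 2.93 and 3.80 in wild type (limma adjusted p = 0.0328 in the deletion and 0.368 for the difference). The 15 genes of the glyoxylate and gluconeogenesis list had median levels of 4.39 at 7 hours and 0.68 at 5 hours in the deletion, and 4.92 at 9 hours and 2.76 at 7 hours in wild type, so the list as a whole was not near its second level at the first array in wild type. The deletion had the higher step for 12 of the 15 and wild type for 3, IDP2 among them.

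**Figure D4:**
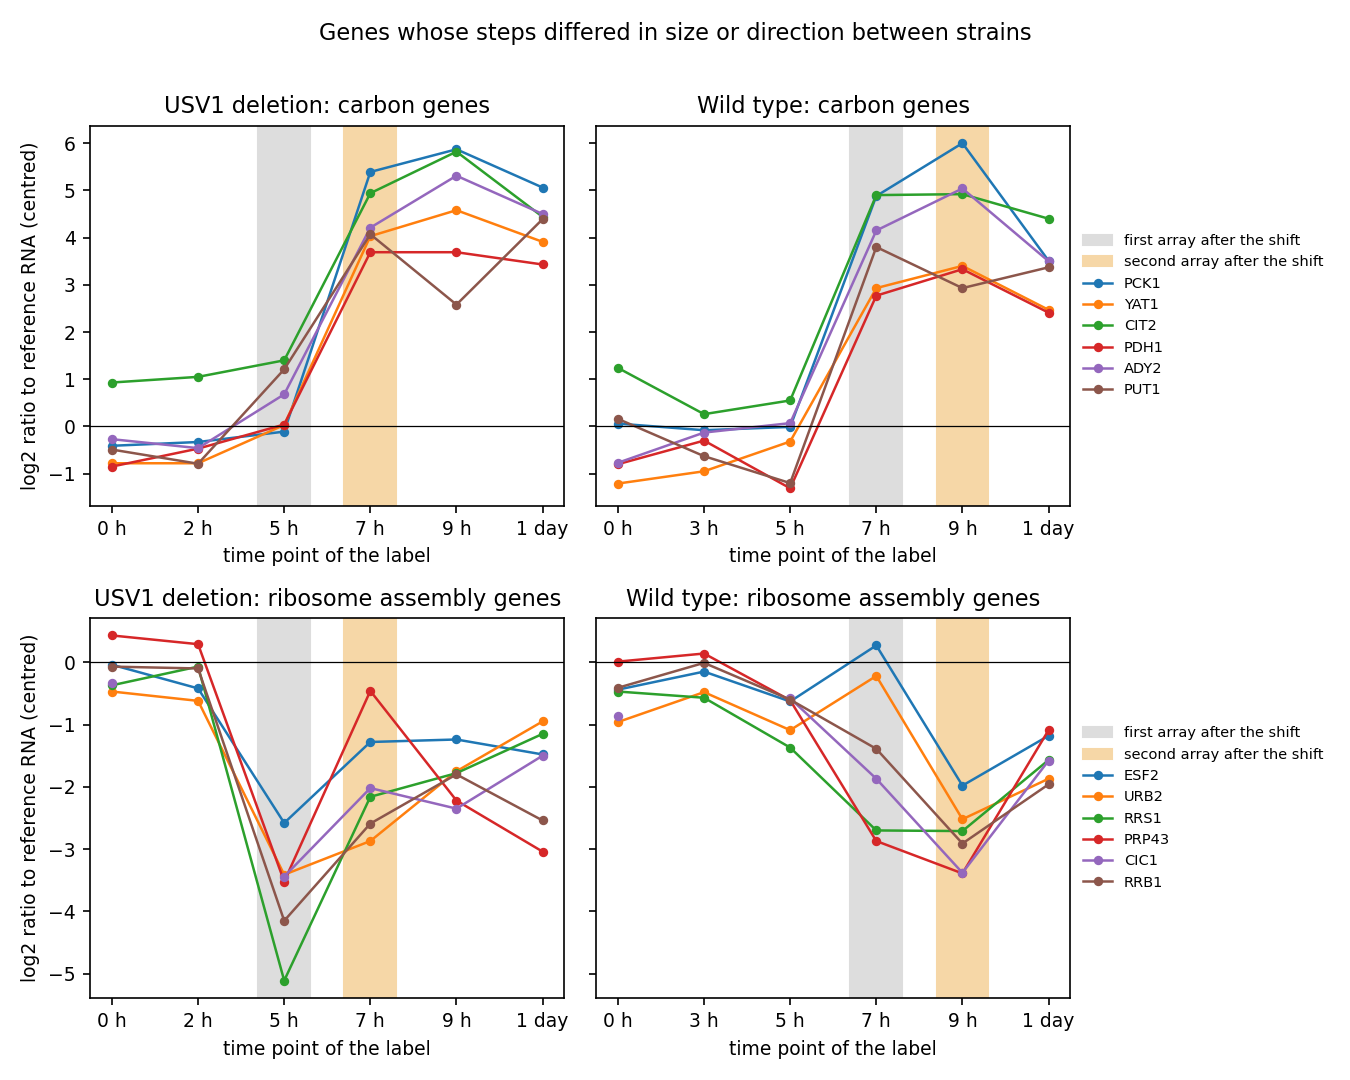
Centred log2 ratios to the reference RNA over the 6 arrays of the deletion (left) and wild type (right) for carbon and proline genes (top) and ribosome assembly genes (bottom) whose steps differed in size or direction; bands mark the first and second arrays after the shift, and a gap is a missing value. PCK1, YAT1, CIT2, PDH1 and ADY2 stand far above 0 in the first band in wild type and below 2 there in the deletion, and ESF2 and URB2 are lower in the second band than in the first in wild type.

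Of the 6 genes that moved at least 2-fold in opposite directions, ESF2, RRB1 and CIC1 are known for roles in ribosome assembly, and other genes of that process moved in one strain. PRP43, an RNA helicase of splicing and ribosome assembly, read -0.46 and -3.52 in the deletion, and -3.39 and -2.87 in wild type, and RRS1 read -2.16 and -5.11 in the deletion, and -2.71 and -2.70 in wild type. Both were called in the deletion (limma adjusted p = 0.00594 for PRP43 and 0.0131 for RRS1), and the difference of their steps was not (0.211 and 0.48). ESF2, needed for early cuts of the rRNA precursor, read -1.28 and -2.58 in the deletion, and -1.98 and 0.27 in wild type. RRB1, a chaperone for a ribosomal protein, read -2.59 and -4.15 in the deletion, and -2.91 and -1.39 in wild type. CIC1, which acts on the large subunit precursor, read -2.02 and -3.44 in the deletion, and -3.38 and -1.87 in wild type. For these 3 genes the strains lay closer at the second arrays than at the first, where the deletion was the lower one. No difference of the steps was called for ESF2 (limma adjusted p = 0.187) or RRB1 (0.234). CIC1 lacked values at 2 hours in the deletion and at 3 hours in wild type, and was not fitted per strain. URB2 and UTP13, of rRNA processing, had steps of 0.54 and 0.40 in the deletion, and of -2.30 and -1.91 in wild type, without a call.

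Wild type alone had calls for HO and ALG5. HO, the mating-type switching endonuclease, read -1.86 and -2.06 in the deletion at 7 and 5 hours, and -1.53 and -4.14 in wild type at 9 and 7 hours (limma adjusted p = 0.025 in wild type, and 0.48 for the difference). ALG5, which makes the glucose donor for protein glycosylation, read -2.22 and -1.95 in the deletion, and -1.80 and 1.03 in wild type (limma adjusted p = 0.025 in wild type, and 0.48 for the difference). YMR206W, PKP2, DYN2 and EMA19 were 2-fold higher in wild type alone, with steps between 1.88 and 2.41, and none was called. MSH3, HAB1, TNA1, MRK1 and PRR2 were 2-fold lower in the deletion alone, with steps between -1.95 and -1.63, and none was called. TNA1 had no value at 2 hours in the deletion and at 0 hours in wild type, and so no fit per strain.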

How the data were processed

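The deposited values, 1 per open reading frame and array, were read as log2 ratios of sample to reference RNA. How the authors scanned, filtered and normalized the spots is not given in the sources used here, nor are the log base, which was taken as 2, and the direction of the ratio. The deposited medians lay between -0.11 and 0.03. The table held 0 columns of no sample. Arrays have no depth, and their number limits the precision.

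The median of every array was set to 0. Systematic names were matched to a RefSeq table of assembly R64, which named 5592 of 6100 genes, and the other 508 keep their systematic name. Spots of near-identical genes (ribosomal protein pairs, HXT, TDH, SNZ, CUP1) can bind each other's transcripts.

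The step was second minus first array after the shift. Tests used limma 3.58.1 (lmFit and eBayes, R 4.3.3) over all genes, with Benjamini-Hochberg adjustment at 0.05. The 4-array fit had strain as a block, 1 residual and 16.9 prior degrees of freedom. The fit within strains used 9 arrays, those before the shift of both strains together giving its 3 residual degrees of freedom (prior 8.49), and took their spread as that of the single later arrays. The fits were also run on simulated data with the fitted spread of each gene in these data, the same on every array. Of 5286 genes with no simulated step, 7 were called over both strains, 7 for the deletion step and 9 for the difference. The difference between strains was called for 1 of 50 genes with a simulated log2 step of 1, 17 of 50 at 2 and 48 of 50 at 3. The deletion step was called for 3 of 50 at 1 and 47 of 50 at 2, and the step over both strains for 31 of 50 at 1. A missing call, above all of a difference, therefore does not show that a gene did not change.

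A shift or step counted from 2-fold, and a shift under 0.5 log2 units was called small. Alternatives were the deposited centring, quantile normalization, scaling to equal spread, equal labelled times, all 12 arrays, no strain block, complete genes, other fold thresholds and arrays left out in turn. The members and gene lists were chosen with earlier results of these data known.

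Genes were named by rule: USV1, the 10 largest rises and 10 largest falls by the smaller strain step among genes 2-fold in both strains, the 5 largest each way per strain that stayed under 1.4-fold in the other strain or went the other way there, up to 5 opposite movers, 2 members per list by size of mean step, and up to 10 calls each way per fit. Remaining called members of a described list, class members, genes next to the threshold and marker genes were named beside them after their values were seen.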

Additional observations from a re-analysis of the deposited data

Results flagged for a closer look

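The deletion and wild-type steps differed by test for PCK1, whose deletion step minus wild-type step was 4.38 (SE 0.53, limma adjusted p = 0.0196), on 1 array per strain and stage. The call was lost under quantile normalization and under scaling to equal spread. It was also lost without the 0-hour or 2-hour array of the deletion or the 3-hour array of wild type.

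A further 6 genes were at least 2-fold apart in opposite directions, and only CIC1 of them lacked a fitted difference. None of the other 5 passed the adjusted threshold, so the differences rest on the direction of single arrays and not on a called test. The deletion step minus the wild-type step was 3.55 for ESF2, 3.08 for RRB1 and 2.93 for CIC1. It was 2.62 for YNL174W, which read -2.75 at 7 hours and -3.79 at 5 hours in the deletion, and -2.59 at 9 hours and -1.01 at 7 hours in wild type. It was 3.13 for CUP1-2, a metallothionein gene, which read 2.74 and 0.61 in the deletion, and 2.80 and 3.80 in wild type. The near-identical CUP1-1 had steps of 2.70 in the deletion and 0.06 in wild type, and the spots of the copies cannot be told apart. TIP20, of vesicle transport back to the endoplasmic reticulum, was the single gene that went down in the deletion and up in wild type, with a difference of -2.54 and readings of -0.34 and 0.72 in the deletion, and 1.73 and 0.25 in wild type.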

How the results depend on the processing

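Each stage of each strain is 1 array, so an array's own error cannot be told apart from its time. None of the 24 named steps tested over both strains changed sign under the alternatives run, while the deletion medians of the cytosolic ribosomal lists and the wild-type median of ribosome assembly turned sign under the scalings given beside them, as did the sterol list's deletion median (-0.02 under quantile normalization). Other list medians turned sign too. Under quantile normalization the translation list went from 0.35 to -0.03 in the deletion, and tRNA synthetases from 0.29 to -0.03 in wild type. Under equal spread the GID ubiquitin ligase list went from -0.39 to 0.09 in the deletion. List medians moved in size in 33 cases and stayed in 65 under quantile normalization, against 20 and 78 under equal spread. All 24 kept their call under quantile normalization and under scaling to equal spread, 17 kept it with the deposited centring (GPD2, VIR1, BAR1, RPC53, GAC1, PCK1 and GRE3 lost it), 13 with all 12 arrays and 8 without the strain block, and 0 with equal labelled times. No replicate numbers pair arrays. The strain block pairs the second with the first array of each strain.

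The 102 calls over both strains became 37 with the deposited centring (all 37 among the 102), 55 with all 12 arrays (all 55 among them), 9 without the strain block, 157 over genes complete on 12 arrays and 0 with equal labelled times, and ranged from 0 to 127 with an array left out. The 68 deletion calls, 9 wild-type calls and 1 called difference became 0, 0 and 0 under quantile normalization and 3, 0 and 0 under equal spread. Both settings widen the arrays before the shift, which gave that fit its spread, and narrow the 4 arrays. The median absolute deviation as centred was 0.32 to 0.45 before the shift, against 0.75 to 0.85 on the 4 arrays. Which of these lowered the counts was not tested. With an array left out, the deletion calls, wild-type calls and called differences ranged from 27 to 189, from 2 to 37 and from 0 to 10.

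Counts 2-fold up in both strains, down in both, up in the deletion, down in the deletion, up in wild type and down in wild type became 26, 6, 118, 37, 52 and 42 under quantile normalization, and 58, 6, 238, 47, 135 and 57 under equal spread. They became 360, 191, 1083, 812, 869 and 565 from 1.5-fold, and 26, 3, 155, 22, 49 and 20 from 3-fold. Equal labelled times gave 28 up in both, 15 down in both and 219 up in the deletion.

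Classes moved likewise. Under quantile normalization late rises, further rises, recoveries and fading rises numbered 23, 36, 30 and 18 in the deletion, 12, 10, 14 and 11 in wild type, and 3, 4, 2 and 0 in both strains, and late falls 4, 13 and 0, with 0 further falls in both. Under equal spread recoveries and fading rises numbered 92 and 22 in the deletion, 56 and 20 in wild type, and 13 and 1 in both. Late rises then numbered 36 in the deletion, further rises 26 in wild type, late falls 6, 20 and 0, and further falls 2 in wild type and 0 in both. With the deposited centring the deletion had 39 late and 14 further falls, and both strains shared 4 late falls. The cause of these moves was not tested.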
